A study of Homo sapiens with 3 samples.

Results

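Small nucleolar RNAs (snoRNAs) guide chemical modification and cleavage of ribosomal RNA, and most human ones lie in introns of longer host genes. The host transcript is spliced, and the snoRNA is trimmed from the excised intron, where bound core proteins protect it from exonucleases. Box C/D snoRNAs guide ribose methylation and box H/ACA snoRNAs guide pseudouridylation. Many hosts code for no protein, and many of their transcripts start with a run of pyrimidines. CSTF2tau, also called CstF-64 tau, is a close relative of CSTF2, the RNA-contacting part of the cleavage stimulation factor. That factor binds U- and GU-rich RNA downstream of polyadenylation sites during 3' end formation.

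The genes described here are 9 snoRNA hosts, out of 13356 Ensembl gene IDs with a listed CSTF2tau peak. They are SNHG25 (ENSG00000266402), GAS5 (ENSG00000234741), SNHG1 (ENSG00000255717), SNHG5 (ENSG00000203875), SNHG6 (ENSG00000245910), SNHG3 (ENSG00000242125), RCC1 (ENSG00000180198), SNHG8 (ENSG00000269893) and SNHG12 (ENSG00000197989). They were selected on the listed peaks and reads of these libraries, by gene ID and without a threshold on reads. Their reads, shares and ranks are therefore given as a description, with no test. The peak lists do not pair gene IDs with symbols. Each symbol was set to its ID by the rule that chose the genes, and the chromosome matched RefSeq's entry for 9 of 9 symbols and the strand for 7 of the 7 with a known strand. RefSeq (GRCh38.p14) places at least 1 snoRNA gene inside each of the 9, and the name snoRNA host is used for all of them. That placement used chromosome and coordinates only, and the strand of the snoRNA genes was not checked.

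The RNA came from wild-type cells of the established human neuroblastoma line BE(2)-C, derived from a bone marrow metastasis. In sCLIP, living cells are irradiated with ultraviolet light so that proteins become crosslinked to the RNA they touch. After partial digestion, the RNA pieces that come down with an antibody to the protein are sequenced. All libraries were made with the anti-CSTF2tau antibody A301-486A (Bethyl) and form a single group of 3 biological replicates. No treatment, knockdown, input or control antibody library entered the comparisons, so nothing below separates binding from background, and shares also move with the abundance of each host RNA. Cell identity was not checked against marker genes, because the lists carry gene IDs only.

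Replicates 1, 2 and 3 listed 105203, 18346 and 78761 peaks with 736059, 108434 and 387784 reads. A read value is the whole number that ends each peak's name, taken as reads because it falls with the authors' p-value (Spearman's rho from -0.988 to -0.964 over the peaks of a list). No source states that reading. A share is the percentage of all listed reads of a replicate, not of its sequencing depth, and peaks with under 3 reads were not listed. In that total a peak listed under several gene IDs counts for each of them. The joint share of the hosts takes overlapping SNHG3 and RCC1 peaks once, so its count and its total are formed differently. Positions are in hg19. A locus is a stretch of overlapping peaks on the same strand, merged over the replicates. Intervals are exact (Clopper-Pearson) at the 95% level and cover counting error only. They show the precision of each library and not the spread between cultures.

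The starts of the hosts are shown first, since a pyrimidine run at the start is the sequence feature for which this gene class is known. Lower case marks the 15 bases before RefSeq's annotated start and capitals the 25 bases from it, on the gene's strand (GRCh38.p14). Entries were found for 7 of the 9 hosts, with 2 for RCC1.
SNHG3: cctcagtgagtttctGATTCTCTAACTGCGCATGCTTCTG
RCC1, entry 1: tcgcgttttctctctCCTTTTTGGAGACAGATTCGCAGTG
RCC1, entry 2: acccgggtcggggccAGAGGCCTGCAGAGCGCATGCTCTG
GAS5: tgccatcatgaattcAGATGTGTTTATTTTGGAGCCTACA
SNHG1: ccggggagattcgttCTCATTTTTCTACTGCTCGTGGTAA
SNHG5: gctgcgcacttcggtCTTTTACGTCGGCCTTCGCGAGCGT
SNHG8: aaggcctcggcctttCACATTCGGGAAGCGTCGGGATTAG
SNHG12: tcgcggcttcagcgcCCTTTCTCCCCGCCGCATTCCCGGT

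These windows lie at chr1:28505928-28505967 for SNHG3, at chr1:28506028-28506067 and chr1:28518211-28518250 for RCC1, and at chr1:173869021-173869060 for GAS5. Those of SNHG1, SNHG5, SNHG8 and SNHG12 lie at chr11:62855861-62855900, chr6:85678709-85678748, chr4:118278747-118278786 and chr1:28581849-28581888. The longest unbroken run of C or T from 10 bases before to 20 bases after the start was counted on the gene's strand. It was 17 bases at the first RCC1 start, 12 at SNHG12, 7 at SNHG1, 6 at SNHG3, SNHG5 and SNHG8, 4 at GAS5 and 3 at the second RCC1 start. The run could lie anywhere in that stretch. At SNHG1, SNHG3, GAS5 and the second RCC1 start it began after the annotated start and did not include it. Over all 35116 windows of the table the median was 4, with a run of at least 6 in 30.4%, of at least 7 in 19.3%, of at least 12 in 2.51% and of at least 17 in 0.581%. The runs are a description of the annotated starts. They use no peak, and the annotated start need not be the one used in these cells.

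CSTF2tau peaks were listed on every host, and 8 of the 9 had peaks in all replicates, against 33% of all gene IDs. Among the 6982 gene IDs with at least 23 reads, the total of the weakest host, 59.3% had peaks in all replicates. Counted together, with the overlapping SNHG3 and RCC1 peaks taken once, the hosts held 553, 585 and 280 reads in replicates 1, 2 and 3. These were shares of 0.0751% (0.069 to 0.0817%), 0.540% (0.497 to 0.585%) and 0.0722% (0.064 to 0.0812%). The mean was 0.229% ± 0.269 (SD, n = 3). Replicates 1 and 3 lay close together, and replicate 2 stood 7.18-fold and 7.47-fold above them, so the SD exceeds the mean. Without replicate 2 the mean was 0.0737%, and with each listed peak counted once it was 0.103%.

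The higher share in replicate 2 was found at nearly all hosts but differed in size between them. Of the 8 hosts listed in all replicates, 7 had their highest share in replicate 2, against 41.7% of all gene IDs listed in all replicates. The median ratio of replicate 2 over replicate 1 was 5.34 for these 8 hosts and 1.18 for all such gene IDs, and over replicate 3 it was 7.15 against 1.09. SNHG3 and RCC1 enter these values as separate hosts although they share most of their reads. Gene IDs of like read numbers were not compared, so the gap is not read as a trait of snoRNA hosts. For SNHG25, SNHG3, RCC1, GAS5, SNHG1 and SNHG6 the interval of replicate 2 lay above those of both other replicates. Counting each peak once gave joint ratios of 3.08 over replicate 1 and 4.96 over replicate 3. Within the gene IDs listed in all replicates the ratios were 6.0 and 5.88, and without SNHG25, SNHG3 and RCC1 they were 3.91 and 5.21. Replicate 2 also had the fewest peaks and the fewest gene IDs (5173, against 11152 and 10788). The part of library size in the host shares was not tested.

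**Figure D1:**
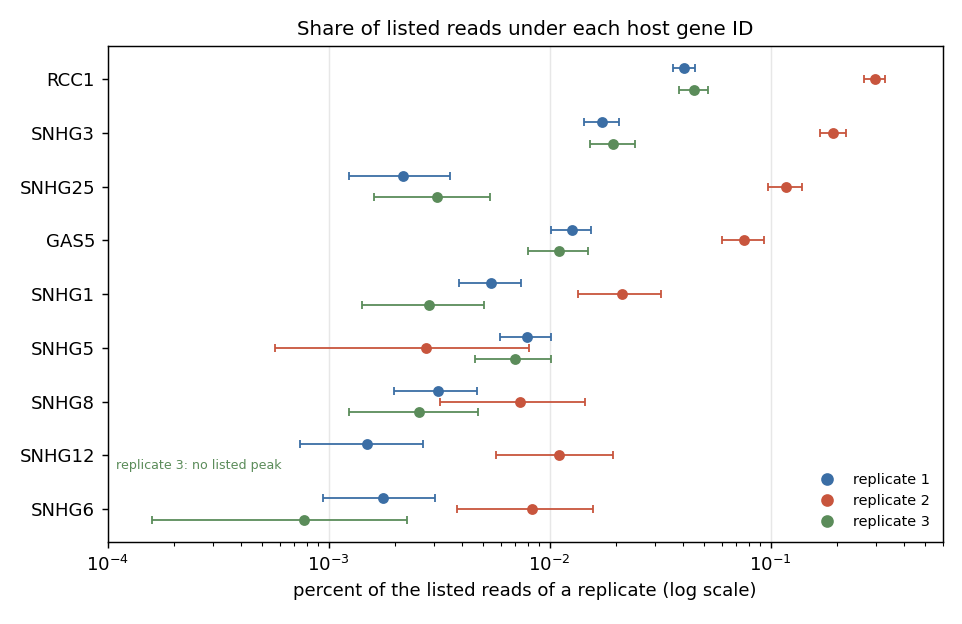
Share of the listed reads (percent, log axis) under each host gene ID in replicates 1, 2 and 3, ordered by mean share. Points are single libraries and bars are exact 95% intervals for counting error; replicate 2 is the rightmost point for every host except SNHG5, and SNHG12 has no listed peak in replicate 3.

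Among hosts that hold mainly box C/D snoRNAs, SNHG25 had the largest part of its mean share in a single locus. This short non-coding host carries SNORD104, with SNORA50C within 100 nt beside it in RefSeq. Its listed span, from the first to the last peak, was chr17:62223433-62223768 (+), only 336 nt. It had 16 reads in replicate 1, 127 in replicate 2 and 12 in replicate 3, or 0.00217%, 0.117% and 0.0031% of the listed reads. The mean was 0.0408% ± 0.0661 (SD, n = 3), and 0.00263% without replicate 2. Replicate 2 was thus 53.9-fold above replicate 1 and 37.9-fold above replicate 3, more than at any other host, and replicates 1 and 3 had overlapping intervals.

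Most SNHG25 reads lay in an 86 nt locus at the 3' end of its span, chr17:62223683-62223768, with 16, 121 and 8 reads. It held 94.6% of SNHG25's mean share, close to the 92.5% in the top locus of SNHG6. In replicate 1 the SNHG25 locus held 100% of its host's reads and the SNHG6 locus 53.9%. In replicates 2 and 3 the order was reversed, with 95.3% and 66.7% at SNHG25 and 100% in each at SNHG6. The strongest peak of any host lay in the SNHG25 locus, with 102 reads in replicate 2. Each peak carries an inner stretch of at most 4 nt set by the authors' caller, and in that peak it lay at chr17:62223707-62223710. The strongest peak of replicate 3 had it at chr17:62223701-62223704, and the only peak of replicate 1 at chr17:62223742-62223745. No nucleotide was covered in all replicates, since the peaks of replicates 1 and 3 only met through those of replicate 2. The remaining SNHG25 locus, chr17:62223433-62223475, had 6 reads in replicate 2, 4 in replicate 3 and none listed in replicate 1.

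GAS5 was first described as a transcript that accumulates in growth-arrested cells, and RefSeq places 11 snoRNA genes inside it, 10 of them box C/D. It had 93, 82 and 43 reads in replicates 1, 2 and 3, or 0.0126%, 0.0756% and 0.0111% (mean 0.0331% ± 0.0368, SD, n = 3; 0.0119% without replicate 2). Replicate 2 was 5.99-fold and 6.82-fold above replicates 1 and 3. The 11 GAS5 loci, at chr1:173832956-173835858 (-), included none found in all replicates.

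The place of the GAS5 signal differed between replicates. In replicate 1 the strongest locus was the 5'-most one, chr1:173835768-173835858, with 46 of 93 reads in a single peak and no listed read in replicates 2 and 3. In replicates 2 and 3 it was the 3'-most one, chr1:173832956-173833041, with 75 of 82 and 21 of 43 reads and none listed in replicate 1. The next locus upstream, chr1:173833183-173833360, had 7 reads in replicate 2 and 19 in replicate 3. The other replicate 1 peaks were short and weak, with 3 to 10 reads each. They included chr1:173833718-173833808, which had 13 reads in replicate 1 and 3 in replicate 3. The 3'-most locus made up 75.1% of GAS5's mean share, but 22.8% without replicate 2, where the 5'-most locus led with 26.3%.

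SNHG1, first described as the host of U22, holds 9 snoRNA genes in RefSeq, 8 of them named box C/D. It had 40, 23 and 11 reads, or 0.00543%, 0.0212% and 0.00284%, a mean of 0.00983% ± 0.00994 (SD, n = 3; 0.00414% without replicate 2). Replicate 2 was again the highest, by 3.90-fold and 7.48-fold. Its 5 loci lay within 782 nt at chr11:62619370-62620151 (-).

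One SNHG1 locus was found in all replicates, chr11:62619494-62619581, with 14, 5 and 4 reads. It had 55 nucleotides covered in every replicate, and the nearest inner stretches of any pair of replicates were at most 7 nt apart. Between the strongest peaks the distance was 27 nt from replicate 1 to replicate 2 and 33 nt to replicate 3. On either side of it the replicates differed. The 5'-most locus, chr11:62620020-62620151, had 18 reads in replicate 1 and 7 in replicate 2 but none listed in replicate 3. The 3'-most locus, chr11:62619370-62619434, had 11 reads in replicate 2 and 7 in replicate 3 but none listed in replicate 1.

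SNHG5, the host of SNORD50A and SNORD50B, went the other way from the rest of the group. It had 58 reads in replicate 1, 3 in replicate 2 and 27 in replicate 3, or 0.00788%, 0.00277% and 0.00696% (mean 0.00587% ± 0.00273, SD, n = 3). Replicate 2 was at 0.351 of replicate 1 and 0.397 of replicate 3, with only 1 peak of 3 reads, and its interval (0.000571 to 0.00809%) overlapped both others. Its 11 loci spread over 11846 nt at chr6:86375263-86387108 (-), and the strongest held 19.8% of its mean share, the lowest such value among the hosts. That locus, chr6:86386613-86386717, had 20 reads in replicate 1 and 3 in replicate 3. Another with 20 reads, chr6:86385119-86385273, was listed in replicate 1 only, and chr6:86383814-86383903, with 9 reads, in replicate 3 only.

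SNHG6, the host of SNORD87, was weakly covered, with 13, 9 and 3 reads, or 0.00177%, 0.0083% and 0.000774%. The mean was 0.00361% ± 0.00409 (SD, n = 3; 0.00127% without replicate 2), and replicate 2 was 4.70-fold and 10.7-fold above the others. Its 3'-most locus, chr8:67834056-67834204 (-), had 7, 9 and 3 reads and held 92.5% of the mean share. The peaks of the replicates overlapped there in a chain, with no nucleotide covered in all of them and inner stretches up to 81 nt apart. The remaining peak, at the 5' end (chr8:67837677-67837713), had 6 reads in replicate 1 only.

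The hosts of box H/ACA snoRNAs include the strongest pair. SNHG3 holds SNORA73A and SNORA73B, the U17 snoRNAs needed for cleavage of precursor ribosomal RNA rather than for its modification. RCC1, which overlaps it on the same strand, codes for the chromatin-bound nucleotide exchange factor of the GTPase Ran and is the only protein-coding gene of the group. SNHG3 had 127, 208 and 75 reads at chr1:28832915-28837030 (+), or 0.0173%, 0.192% and 0.0193%. Its mean was 0.0761% ± 0.100 (SD, n = 3; 0.0183% without replicate 2). RCC1 had 299, 321 and 174 reads at chr1:28832903-28862840 (+), or 0.0406%, 0.296% and 0.0449%, with a mean of 0.127% ± 0.146 (0.0428% without replicate 2). Replicates 1 and 3 had overlapping intervals for both genes. Replicate 2 stood 11.1-fold and 9.92-fold above them at SNHG3, and 7.29-fold and 6.60-fold at RCC1.

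The reads of these overlapping genes cannot be told apart. All 23 SNHG3 peaks overlapped an RCC1 peak of the same replicate. In 16 the inner stretch was the same and in all 23 it lay within 3 nt, while only 3 had the same edges. Of RCC1's 794 reads, 622 (78.3%) fell in the SNHG3 span, with 77.9%, 82.2% and 71.8% in replicates 1, 2 and 3. Beyond that span RCC1 kept 28 of its 79 peaks, with 66, 57 and 49 reads. The reads assigned to SNHG3 were fewer than those assigned to RCC1 within the shared stretch in each replicate.

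Along the shared stretch, 3 loci were found in all replicates, and all lay in its 3' part. As listed under RCC1, chr1:28835929-28836049 had 10, 5 and 13 reads, chr1:28836126-28836451 had 55, 56 and 21, and chr1:28836643-28837074 had 59, 74 and 47. They had 49, 70 and 137 nucleotides covered in every replicate, and the nearest inner stretches of any pair of replicates were at most 11, 10 and 27 nt apart. Several peaks can lie in a locus, and between the strongest peaks the farthest distances were 11, 143 and 237 nt, so only the first of these loci had its strongest peaks at one place. Replicates 1 and 2 had like numbers of reads at the second of these, although replicate 1 has far more listed reads in all. The locus with the most reads in replicate 2 was elsewhere, at chr1:28835070-28835241, with 92 reads in replicate 2, 6 in replicate 3 and none listed in replicate 1. Near the 5' end, chr1:28833873-28833954 had 26 and 33 reads in replicates 1 and 2 and none listed in replicate 3. The first locus, chr1:28832903-28832985, had 16 reads in replicate 1 only.

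Beyond SNHG3, only 1 RCC1 locus was found in all replicates, chr1:28841286-28841422, with 7, 15 and 4 reads. It had 38 nucleotides covered in every replicate, but the inner stretches of replicates 1 and 2 were 76 nt apart. The last RCC1 peaks, up to chr1:28862794-28862840, had 4 to 6 reads each and were listed in replicate 1 only.

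SNHG8, the host of SNORA24, had 23, 8 and 10 reads at chr4:119199981-119201041 (+), or 0.00313%, 0.00738% and 0.00258% (mean 0.00436% ± 0.00263, SD, n = 3; 0.00285% without replicate 2). Replicate 2 was 2.36-fold and 2.86-fold above the others, the smallest rise among the hosts highest there, and its interval overlapped both others. None of its 5 loci was found in all replicates. The strongest locus of replicate 1 was the 5'-most, chr4:119199981-119200060, with 13 reads. In replicate 3 it was the 3'-most, chr4:119200978-119201041, with 7 reads, and in replicate 2 the middle one, chr4:119200358-119200459, with 5.

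SNHG12, which holds SNORA61, SNORA44, SNORA16A and SNORD99, had the fewest reads. It had 11 in replicate 1 and 12 in replicate 2 at chr1:28905606-28907014 (-), or 0.00149% and 0.0111%, and no listed peak in replicate 3. No peak of another gene ID was listed on that strand of its span in replicate 3 either. The lists leave out weak peaks, so this gives no upper limit for replicate 3. Its single peak in replicate 2, within chr1:28906298-28906388, lay between the 2 peaks of replicate 1, which had 5 and 6 reads at the ends of the span.

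**Figure D2:**
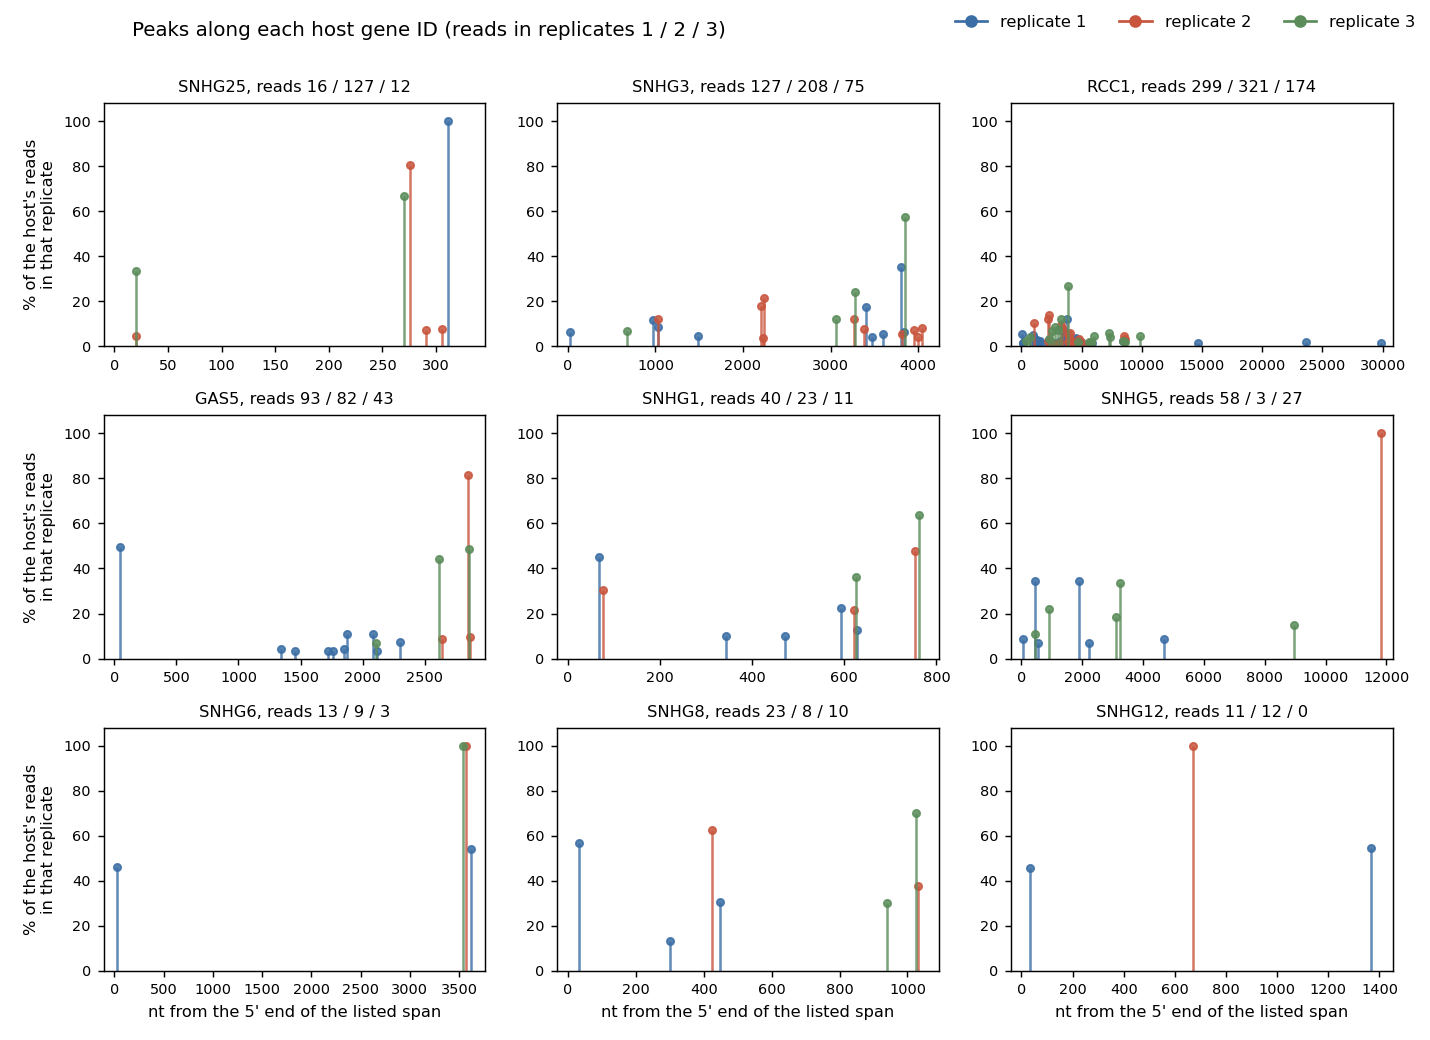
Peaks along each of the 9 hosts, by distance (nt) of the inner stretch from the 5' end of the listed span (x axis) and percent of that host's reads in the same replicate (y axis). Each stem is a peak; the GAS5, SNHG1 and SNHG8 panels show replicate 1 stems at the 5' end and replicate 3 stems towards the 3' end, while RCC1 peaks crowd at its 5' end, where SNHG3 lies.

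At 6 of 9 hosts in replicate 2, and at 6 of 8 in replicate 3, a larger part of the reads lay towards the 3' end of the listed span than in replicate 1. The same count was not made over all gene IDs, so these counts are not read as a trait of the hosts. SNHG3 and RCC1 enter them as separate hosts although they share most of their reads. The median host had 46.2% of its reads on the 3' side of the midpoint of its span in replicate 1, 88.0% in replicate 2 and 96.7% in replicate 3 (9, 9 and 8 hosts). Over gene IDs with at least 23 reads the medians were 50%, 77.5% and 48.5%, so replicate 2 leaned that way in general and replicate 3 did not. GAS5 had 46.2%, 100% and 100%, SNHG1 had 45.0%, 69.6% and 100%, and SNHG3 had 68.5%, 88.0% and 93.3%. SNHG5 went from no read there in replicate 1 to all 3 reads in replicate 2 and 14.8% in replicate 3. The exceptions were SNHG25, with 100%, 95.3% and 66.7%, SNHG12, with 54.6% in replicate 1 and none in replicate 2, and RCC1, with 3.34% in replicate 1 and none in the others. The spans begin and end at peaks of these libraries and are not annotated transcript ends. SNHG6 and SNHG8 rest on 10 reads or fewer in replicate 3.

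Positions came back more often at the hosts than in the lists as a whole. The 161 host peaks formed 79 loci, of which 7 were found in all replicates, while 18 were shared by a pair of them and 54 were seen in a single one. Over all 172167 loci, 0.889% were found in all replicates. The 7 loci belonged to 5 of the 9 hosts, and 4 of the 7 lay at SNHG3 or RCC1. They held 168 of 553, 285 of 585 and 100 of 280 host reads, or 30.4% (26.6 to 34.4%), 48.7% (44.6 to 52.9%) and 35.7% (30.1 to 41.6%), a mean of 38.3% ± 9.43 (SD, n = 3). Over all genes the loci found in every replicate held 4.54%, 15.4% and 5.04% of the reads. The hosts were chosen on these same reads, so the gap is a description. The values over all loci and genes include gene IDs with few reads. No comparison with gene IDs of like read numbers was made, so the gap is not read as a trait of snoRNA hosts.

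The count of 7 depends on the definition of a locus and on each library. It was 4 with peaks of at least 5 reads and 3 when an overlap had to cover at least 50% of both intervals, which left 4.86% of host reads in such loci. These values were not set against the same values over all genes. Leaving out replicate 1 gave 16 loci in both others with 71.8% of their host reads, and leaving out replicate 3 gave 13. Of the 7, 5 had nucleotides covered in all replicates. The farthest distance between the nearest inner stretches of a pair of replicates had a median of 27 nt over the 7 host loci and 40 nt over all 1530 such loci, whose median widths were 137 and 158 nt.

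**Figure D3:**
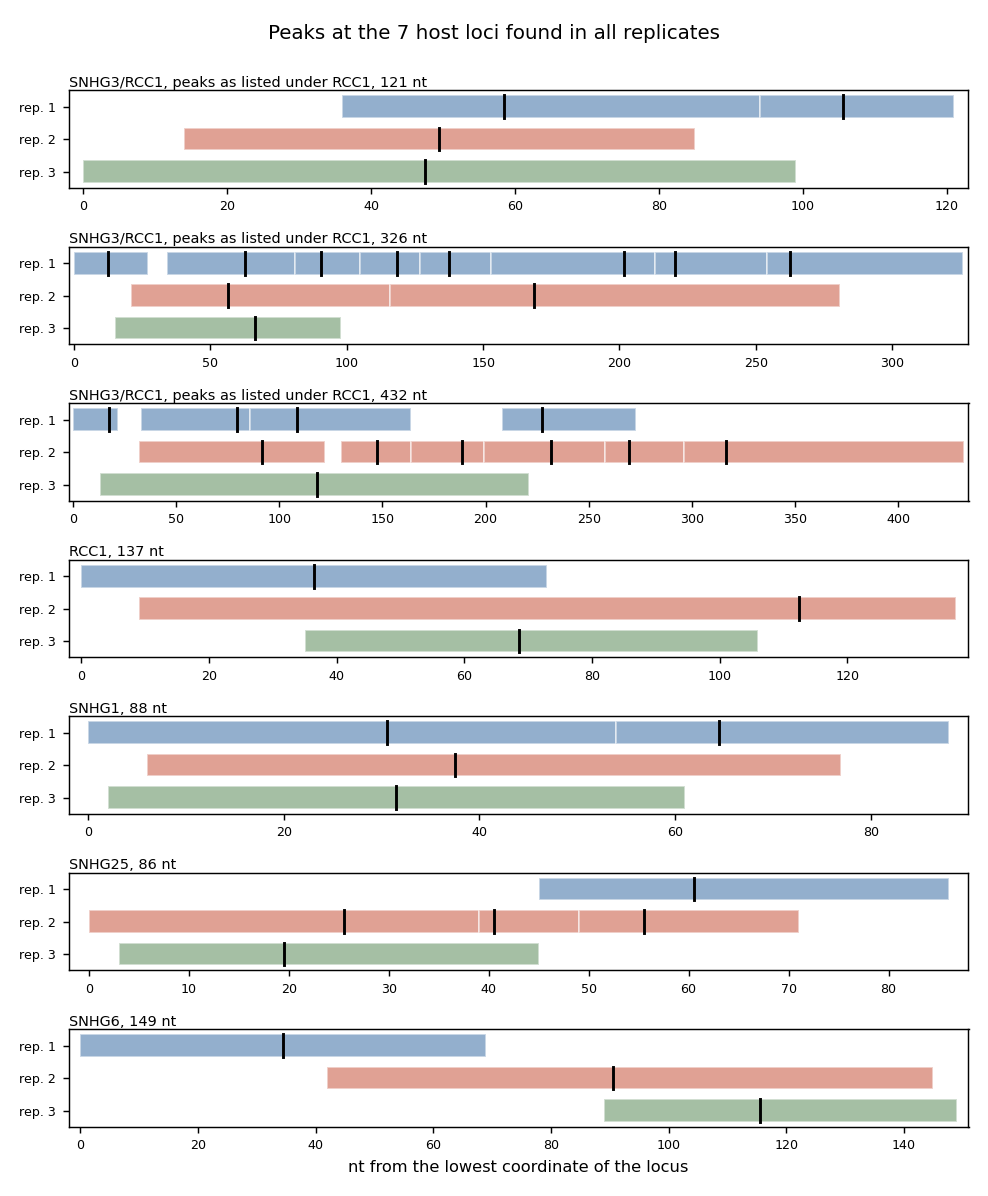
Peaks at the 7 host loci found in all replicates, as bars by replicate along the locus (nt from its lowest hg19 coordinate), with inner stretches as black ticks. At SNHG1, 1 of the replicate 1 ticks lies within 7 nt of the ticks of replicates 2 and 3 and the other apart from them, and the peaks of replicates 1 and 3 do not overlap at SNHG25 and SNHG6.

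At some hosts most of the share lay in a single locus. One locus held at least 50% of the mean share at 4 of the 9 hosts, SNHG25, SNHG6, SNHG12 and GAS5, against 7.3% of the gene IDs with at least 23 reads. The median over the hosts was 42.5%, against 20.7% over those gene IDs, which had a median of 13 loci each. SNHG25 and SNHG6 had only 2 loci, so that the stronger holds at least 50% by construction, and SNHG12 had 3. Replicate 2 weighs heavily in these means. Without it, 3 of the 9 hosts had at least 50% in a locus, against 4.4% of the gene IDs, and GAS5 was no longer among them. These were SNHG25, SNHG6 and SNHG12, each left with only 2 loci, so all 3 reach 50% by construction. The gap to 4.4% is therefore not read as a trait of the hosts. The top locus of SNHG12 was then another one, since its replicate 2 locus has no listed read elsewhere. Within single replicates the median host had 49.5%, 91.5% and 60.5% of its reads in its top locus. SNHG5, SNHG6 and SNHG12 had 1 peak each in replicate 2, and SNHG6 had 1 in replicate 3, which gives 100% by construction. The same medians were not computed over all gene IDs, so they are not read as focal signal at the hosts. Host clusters of overlapping peaks had a median width of 53.5, 62 and 75.5 nt in replicates 1, 2 and 3 (64, 34 and 32 clusters), against 79, 72 and 69 nt over all clusters. With overlapping peaks joined, host clusters were therefore narrower than all clusters in replicates 1 and 2 and wider in replicate 3. The replicate 1 median rests largely on RCC1, which listed 40 peaks there, against 10 at GAS5, the next highest. Several of those RCC1 peaks touch without overlapping and so count as separate clusters. The mean of 63.7 nt ± 11.1 (SD, n = 3) became 75.2 nt with peaks of at least 5 reads and 74.8 nt with touching peaks joined. These values were not set against all clusters under the same settings, so the comparison holds for the main joining rule only.

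Whether peaks sat on the embedded snoRNAs or on host exons could be followed only where the lists themselves carry a second, short gene ID inside a host. There were 5 such IDs on the same strand within 1000 nt, at 6 hosts, with listed spans of 76 to 165 nt. The files do not name them, so they are not called snoRNAs here. None had a listed read in replicate 1. ENSG00000207311, inside SNHG12 at chr1:28906298-28906388, had 13 reads in replicate 2 only, over the same peak that SNHG12 lists with 12 reads. ENSG00000206823, inside SNHG8 at chr4:119200358-119200459, had 7 reads in replicate 2 only, where SNHG8 lists 5.

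The others lay in GAS5, in SNHG3 and RCC1, and beside SNHG1. ENSG00000200710, at chr1:173833196-173833360 in GAS5, had 8 reads in replicate 2 and 19 in replicate 3, where GAS5 lists 7 and 19. ENSG00000200087, at chr1:28835101-28835241 in SNHG3 and RCC1, had 7 reads in replicate 3 and none listed in replicate 2, although the RCC1 peaks that overlap it had 92 reads there. ENSG00000207487, at chr11:62620400-62620475, lay 248 nt outside the SNHG1 span, with 4 reads in replicate 2.

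Host reads overlapping these short IDs numbered 7 of 553, 116 of 585 and 25 of 280, or 1.27%, 19.8% and 8.93% in replicates 1, 2 and 3. The mean was 10.0% ± 9.33 (SD, n = 3), and 5.10% without replicate 2. In every replicate most host reads therefore overlapped no listed peak of a short ID. In replicate 2, 92 of the 116 came from the single stretch in SNHG3 and RCC1. The loci with the highest mean share at SNHG25, GAS5, SNHG1, SNHG5, SNHG6 and RCC1 carried no short ID. A short ID shows only where it has its own listed peak, so the lack of one does not place these loci outside a snoRNA. Whether those loci are exons or snoRNAs was not analysed here, because no hg19 annotation was used.

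The libraries differed in strand, and the minus-strand hosts were not among the gene IDs that were higher in replicate 3. In replicate 3 the share of a minus-strand gene ID was higher than in replicate 1 by a median ratio of 1.63, against 0.949 on the plus strand. All 4 minus-strand hosts listed in both replicates, GAS5, SNHG1, SNHG5 and SNHG6, had a lower share in replicate 3, by ratios of 0.878, 0.522, 0.884 and 0.438. Only 29.5% of minus-strand gene IDs were lower there. On the plus strand 1 of 4 hosts, SNHG8 with a ratio of 0.825, was lower in replicate 3, against 51.1% of plus-strand gene IDs. For each of these 5 hosts the intervals of replicates 1 and 3 overlapped.

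The version suffix of the gene IDs also set replicate 1 apart. It differed between replicates 1 and 2 for 9 of 9 hosts, against 46.5% of 4723 shared gene IDs, and between replicates 1 and 3 for 8 of 8, against 43.6% of 8808. Between replicates 2 and 3 it differed for none of 8 hosts and none of 4640 gene IDs. Replicate 1 is also the library without short-ID reads. It alone listed the 5'-most locus at GAS5, SNHG5, SNHG6, SNHG8 and SNHG12 and the shared one of SNHG3 and RCC1. At SNHG1 the 5'-most locus was listed in replicate 2 too, and at SNHG25 it was missing from replicate 1. Replicate 1 alone also listed the 3'-most locus of RCC1 and of SNHG12. It had the most listed peaks (105203, against 18346 and 78761), and the spans begin and end at peaks. The same count was not made over all gene IDs, so it is not read as a trait of the hosts. The parts of the gene models behind the lists and of the number of listed peaks in these differences were not tested.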

How the data were processed

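CSTF2tau sCLIP peaks of 3 biological replicates of BE(2)-C cells were analysed, with replicate numbers taken from the labels. The submitters' processing notes name the hg19 build, FastQC, SAMtools, STAR and bedtools, without versions. The peak caller and the annotation are not given in the sources used here. Each list has 8 columns, including the authors' deposited p-value of each peak, all below 0.05. Peaks were deposited per replicate and not on pooled replicates.

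The host genes and the comparisons were chosen with earlier results of these data known. Peaks sharing at least 1 nt on a strand were joined, within each replicate as clusters and across replicates as loci. A cluster listed under several host IDs took the reads of the ID with the most. The genes named are the 9 hosts, with their loci found in all replicates or holding the highest share. Loci named for a difference between replicates, the short gene IDs, the midpoint split and the strand comparison were chosen after values were seen. Values were computed with Python 3.11.15, pandas 2.3.3, numpy 2.4.6 and scipy 1.17.1, drawn with matplotlib 3.10.9, and the merging was tested on simulated data. No test was run on the hosts. Lists of other snoRNA hosts and of snoRNP core proteins, and reads on annotated snoRNAs, were not analysed here, because the IDs could not be paired with symbols and no hg19 annotation was used.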

Additional observations from a re-analysis of the deposited data

How the results depend on the processing

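Of 51 values recomputed under other settings for 6 results, 43 moved by less than 1 SD between replicates or, for the count of loci, less than 1.5 times. For the joint share of reads the SD, 0.269, exceeded the value itself, 0.229%, so no fall could have counted as a move. The SDs of the top-locus share (21.8 on 42.5%) and of the short-ID share (9.33 on 10.0%) were also wide. The count of 43 is therefore no measure of stability. The 8 that moved further concern 3 results. The 7 host loci found in all replicates became 4 with peaks of at least 5 reads, 3 with an overlap of at least 50% of both intervals, 16 without replicate 1 and 13 without replicate 3, since fewer libraries then had to share a locus. With 1 replicate left out the whole range was 9 to 16. The share of host reads in such loci, 38.3%, became 4.86% with the 50% overlap and 71.8% without replicate 1, in a range of 33.4% to 71.8% with 1 replicate left out. The median cluster width, 63.7 nt, became 75.2 nt with peaks of at least 5 reads and 74.8 nt with touching peaks joined. Their causes were not tested. Joining touching peaks and leaving out RCC1, and the top locus without each replicate, were chosen after seeing the data. The joint share of reads ranged from 0.0737% without replicate 2 to 0.314% with peaks of at least 5 reads, within its wide SD of 0.269.

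No paired analysis was possible because all replicates belong to 1 group. Placement on annotated snoRNAs was not run. Few reads per locus, the lack of a control in the comparison and an unstated meaning of the number in the peak name limit every value.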
